A study of Mus musculus with 2 samples.

Results

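The enzymes described here belong to glycolysis and to lactate formation from its product: glucose-6-phosphate isomerase (Gpi1), the aldolases (Aldoa, Aldoc), triosephosphate isomerase (Tpi1), phosphoglycerate kinase (Pgk1), phosphoglycerate mutase (Pgam1), the enolases (Eno1, Eno2) and the lactate dehydrogenases (Ldha, Ldhb). They were chosen by gene symbol, and every probe set whose annotation gave 1 of these 10 symbols was taken. Of the 10 genes, 8 were represented, by 10 of the 12488 probe sets on the array: Aldoa and Ldhb by 2 each, and the other 6 genes by 1 each. No probe set was listed under Eno1 or Gpi1 in the annotation used, so both were not analysed here, and 0 of the 10 probe sets carried more than 1 symbol. Both Aldoa probe sets bear the suffix that Affymetrix gives to probes shared with other sequences, so aldolase A transcripts and near-identical copies cannot be told apart there.

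The samples were cerebral cortices of E14.5 embryos of the NMRI mouse strain, either wild type or homozygous Pax6-/-, with 1 array for each genotype. The labels do not name the Pax6 allele, and the series' design states 3 embryos for each genotype without saying whether their RNA was pooled. With 1 array per genotype no difference below has a replicate check, no test between genotypes is possible and no p-value is given. Pax6 itself, a transcription factor of cortical progenitors, had a wild type signal of 1169 against 447 in the mutant.

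Glycolysis splits glucose into pyruvate in the cytosol and yields ATP and NADH; lactate dehydrogenase then interconverts pyruvate and lactate. Several steps are served by paralogs with different cell distributions. Aldolase A is the general form, while aldolase C is the form of brain, where it marks radial glia and later astrocytes and some neurons. Enolase 2, also called neuron-specific enolase, replaces enolase 1 as neurons mature. Lactate dehydrogenase A and B are the subunits that predominate in muscle and heart. Many of these genes are induced under hypoxia by HIF-1, whose binding sites contain the letters ACGTG.

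Aldoc was much lower in the mutant than in wild type. Eno2 was also past 2-fold lower, but by a dim probe set whose fold depended on the processing. The other 6 enzyme genes lay within 2-fold. The Aldoc signal, the MAS5 summary of a probe set's brightness in arbitrary units, came to 3782 for wild type and 885 for Pax6-/-. Differences are given as log2 ratios, mutant over wild type, after adding a pseudocount of 81.5 to every signal and centring on the median of the probe sets above a signal filter of about 166; on this scale Aldoc was at −2.05, or 4.13-fold lower in the mutant. The technical spread, taken from probe sets of the same gene, was 0.38 at signals above 828, and the Aldoc ratio was 5.38 times that spread, which holds nothing of the variation between embryos. Of 6615 probe sets with 1 gene symbol above the filter, 13 had lower ratios. When those probe sets were split into deciles by signal, Aldoc had the lowest ratio of the 661 in its decile, the second brightest.

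Aldoa, the paralog, was nearly equal on both arrays. Its brighter probe set read 3703 on the wild type and 3604 on the Pax6-/- array, giving a log2 ratio of −0.08, and its dimmer one 758 and 856, a ratio of 0.11. The sign of the brighter probe set turned under other scalings, to 0.13 after quantile and 0.16 after loess scaling. The log2 ratio of Aldoc minus that of Aldoa was −1.96, against a technical spread of 0.54 for a difference of 2 bright probe sets. Measured against the dimmer Aldoa probe set, the gap was −2.16. The other 7 enzyme genes had a median of −0.46, which ran from −0.51 to −0.21 over the alternatives, and Aldoc minus this median was −1.58. The median of all probe sets was −0.01 above the filter and −0.17 in the 3 brightest deciles by signal.

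Eno2 was the other enzyme past 2-fold. It read 407 on the wild type and 55.6 on the Pax6-/- array, which gave −1.88 on the log2 scale or 3.68-fold lower. The mutant signal was lower than the pseudocount and than the 25th percentile of the mutant array, 90.2, so the fold depends on the pseudocount: the log2 ratio was −2.92 without one and −1.12 with the 50th percentile of all signals. Eno2 passed the signal filter only through its wild type signal, and it lay in the dimmest decile, where the technical spread was 0.72 and the 10th and 90th percentiles of the ratios were −1.14 and 1.23. The ratio ranked 6 from the lowest among the 662 probe sets of that decile. Which of the pair lay lower depended on the processing: Eno2 and Aldoc were at −2.92 and −2.15 without a pseudocount, at −2.06 and −1.88 after loess scaling and at −1.98 and −1.91 after quantile scaling. The enolase 1 counterpart has no value here.

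**Figure D1:**
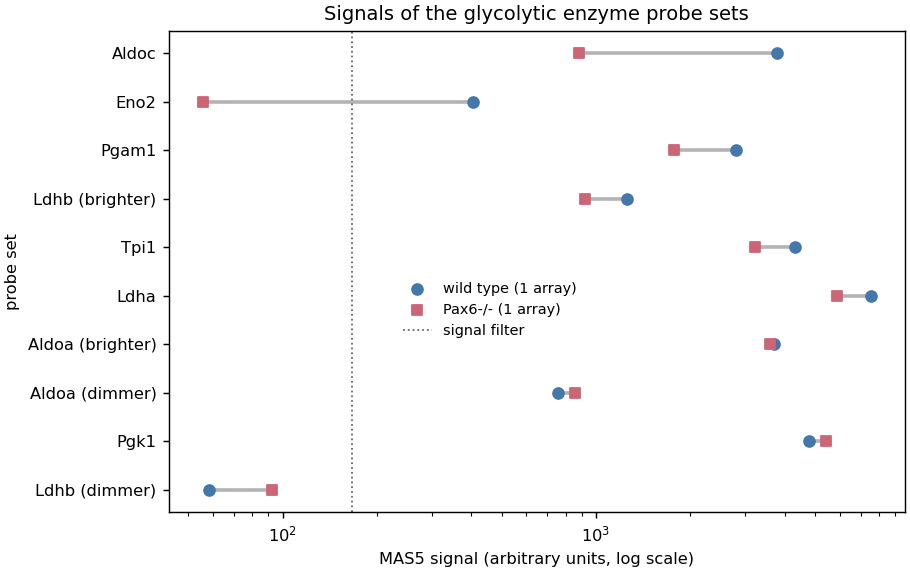
MAS5 signal (arbitrary units, log axis) of the 10 enzyme probe sets on the wild type array (circles) and the Pax6-/- array (squares), ordered by log2 ratio; the dotted line marks the signal filter of about 166. The points of Aldoc (3782 and 885) and Eno2 (407 and 55.6) lie farthest apart, and those of the brighter Aldoa probe set nearly coincide.

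The 2 enzymes at least 2-fold lower can be set beside the 5.65% of all probe sets above the filter that were as far down, and the 0 at least 2-fold higher beside 5.32%. Eno2 passed the filter only through its wild type signal, and without it the count was 1 (Aldoc). In the 3 brightest deciles, which held 7 of the 10 enzyme probe sets, the shares were 2.37% and 0.756%. Over all probe sets above the filter this split was 374 lower and 352 higher, and after loess scaling 444 lower and 263 higher, with Aldoc and Eno2 still the enzymes past 2-fold.

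The promoter windows of Aldoc and Eno2, the pair past 2-fold, are shown with those of Pgk1, which had the highest ratio of the 8 genes, and of Pgam1, whose ratio lay between. Each holds the 250 bases before the RefSeq start of transcription on GRCm38.p6, read 5′ to 3′ on the gene's strand. Capitals mark ACGTG, the core of the HIF-1 site, and GGGCGG, the GC box, on either strand.
Aldoc, chr11:78322823-78323072, + strand: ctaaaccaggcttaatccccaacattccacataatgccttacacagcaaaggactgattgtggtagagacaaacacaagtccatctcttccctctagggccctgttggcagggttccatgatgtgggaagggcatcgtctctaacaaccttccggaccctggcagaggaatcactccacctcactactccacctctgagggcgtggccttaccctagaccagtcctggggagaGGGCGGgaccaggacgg
Eno2, chr6:124769674-124769923, - strand: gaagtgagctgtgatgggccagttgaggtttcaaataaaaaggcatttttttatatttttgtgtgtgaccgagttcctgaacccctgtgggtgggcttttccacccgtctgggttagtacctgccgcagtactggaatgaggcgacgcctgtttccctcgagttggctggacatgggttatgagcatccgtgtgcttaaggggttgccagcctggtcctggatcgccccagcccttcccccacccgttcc
Pgk1, chrX:106186850-106187099, + strand: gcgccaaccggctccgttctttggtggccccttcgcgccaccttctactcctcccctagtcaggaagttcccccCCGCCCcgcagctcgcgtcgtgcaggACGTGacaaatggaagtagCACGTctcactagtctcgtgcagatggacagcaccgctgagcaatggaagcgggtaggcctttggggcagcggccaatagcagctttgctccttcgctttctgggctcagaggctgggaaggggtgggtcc
Pgam1, chr19:41911621-41911870, + strand: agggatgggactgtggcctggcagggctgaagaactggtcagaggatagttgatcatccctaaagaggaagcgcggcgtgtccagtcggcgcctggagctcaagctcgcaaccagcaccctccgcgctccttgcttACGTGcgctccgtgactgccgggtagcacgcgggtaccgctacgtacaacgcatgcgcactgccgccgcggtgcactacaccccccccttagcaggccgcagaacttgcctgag
ACGTG, searched on both strands with overlapping matches counted as 1, occurred 2 times in the Pgk1 window, 131 and 150 bases before the start, and 1 time in that of Pgam1. It was found in neither the window of Eno2 nor either of the 2 windows of Aldoc. Of the genes not shown whose ratios also lay between, Tpi1 and Ldhb lacked it, and Aldoa and Ldha held it. Over all 16 windows of the 10 listed genes, which overlap in part, 5 windows of 4 genes (Aldoa, Ldha, Pgam1 and Pgk1) held it, and the Ldha window with the most held 3. Of all 32851 promoter windows of this length, 16.6% held it. GGGCGG was found in 9 of the 16 windows, of 7 of the 10 genes, Aldoc among them at 17 bases before the start, and in 32.7% of all windows. These are matches of letters only.

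The enzymes between aldolase and enolase differed less. Pgk1, whose step makes ATP, read 4805 (wild type) and 5434 (mutant), a log2 ratio of 0.13. Tpi1, which interconverts both triose phosphates, read 4310.1 and 3211, a ratio of −0.46. Pgam1, which moves the phosphate of phosphoglycerate, read 2796 and 1778, a ratio of −0.68. Apart from Aldoc and Eno2, this was the lowest ratio among the enzymes, 1.77 times the technical spread.

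Both lactate dehydrogenase subunits lay slightly lower in the mutant. Ldha read 7560.1 and 5874, a log2 ratio of −0.41. The brighter Ldhb probe set read 1259 and 920.2, a ratio of −0.47. The dimmer one, below the filter at 58.3 and 92.8, gave 0.27. The ratios of Ldhb and Ldha differed by −0.06, less than the technical spread, and by 0.31 when both Ldhb probe sets were averaged.

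Bright probe sets as a whole read lower on the mutant array, and these small ratios have to be read against that. The median ratio went from 0.22 in the second dimmest decile to −0.26 in the brightest, where 76.4% of probe sets were lower. Aldoa, Ldha, Pgam1, Pgk1 and Tpi1 lay in the brightest decile. Relative to the median of its own decile, Pgk1 was at 0.39, Aldoa at 0.18, Ldha at −0.14, Tpi1 at −0.20, and Pgam1 and Ldhb at −0.41 each. Aldoc, relative to its decile, was still at −1.91 and Eno2 at −2.05. Counted from the lowest of 662 probe sets in the brightest decile, Pgam1 ranked 66, Tpi1 180, Ldha 226, Aldoa 460 and Pgk1 568. Of the 10 enzyme probe sets, 7 were lower in the mutant and 3 higher, against 50.5% lower over all probe sets above the filter and 65.7% in the 3 brightest deciles.

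**Figure D2:**
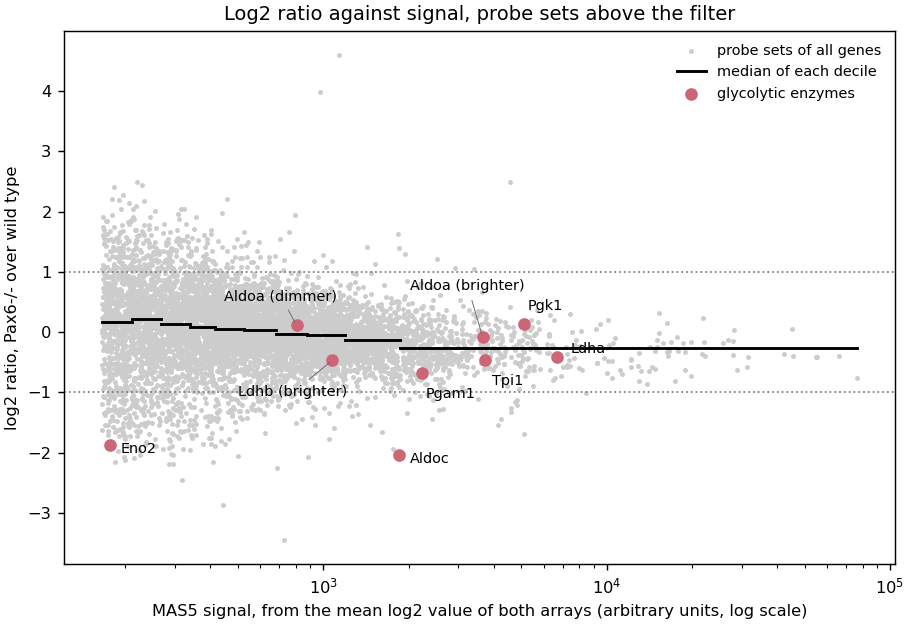
Log2 ratio of Pax6-/- over wild type against signal (log axis) for 6615 probe sets above the filter (grey), with the 9 enzyme probe sets that passed it labelled; black bars give the median of each decile by signal, and dotted lines mark 2-fold. The bars go from 0.17 in the dimmest decile to −0.26 in the brightest, and Aldoc, at −2.05, lies below all other probe sets of its decile.

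Other glycolytic enzymes did not share a direction. Of 18 listed, 14 were on the array and 9 above the filter, 4 lower and 5 higher, where 51.6% of all genes were lower; their median log2 ratio was 0.00, against −0.02 for all genes. The muscle-type phosphofructokinase gene Pfkm, at 1145 and 540 (log2 ratio −1.03), was 1 of 9 at least 2-fold lower, against 5.48% of all genes, and 0 of 9 were at least 2-fold higher, against 5.05%. Over the alternatives Pfkm ran from −1.14 to −0.85, on both sides of the 2-fold mark. The liver-type gene Pfkl was at 0.08, and the hexokinases Hk1 and Hk2, which trap glucose in the cell, were at 0.00 and 0.04. Pkm, which encodes pyruvate kinase, had 2 probe sets that disagreed: the brighter was at −0.73 and the dimmer at 0.36. The brighter was at −0.35 after loess scaling, and the mean of both probe sets was −0.19. Adpgk, an ADP-dependent glucokinase, was at 0.63.

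Gapdh, the enzyme next after aldolase, was read by control probe sets and by probe sets of several symbols. The 3 controls with names ending in _at were at −0.06 (3′ end), −0.32 (middle) and −0.34 (5′ end). They lay above 0 after loess scaling (0.07 to 0.34) and quantile scaling (0.03 to 0.24). The matching controls for the opposite strand were higher in the mutant, at 0.28, 0.28 and 0.30, and lay between 0.22 and 0.36 under the alternatives. A probe set shared by Gapdh and 2 further symbols was at −0.31 and another, shared with Gapdh-ps15, at 0.44. Of the paralogs that serve testis or muscle, Gapdhs was at 0.42 (signals of 212 and 323), with a dimmer probe set below the filter at −0.53. Aldoart2 was at −0.45 and Eno3 at −0.24, and Pgk2, Ldhc and Pgam2, at 0.59, 0.26 and −0.30, were below the filter.

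Over all genes above the filter, 51.6% were lower, 5.48% by 2-fold or more, and 5.05% were higher by as much, and the counts that follow are read against these shares. Among genes of glucose and lactate transport and of pathway control, 9 of 20 were above the filter, 4 lower and 5 higher, with 0 past 2-fold and a median of 0.25. Pfkfb3, which makes the activator of phosphofructokinase, was at −0.93, although its dimmer probe set, below the filter, was at 0.81. Pdk4, an inhibitor of pyruvate dehydrogenase, was at 0.93 from a wild type signal of 101. The glucose transporter gene Slc2a4 was at 0.84, with a dimmer probe set below the filter at −0.07. Pfkfb3 was past 2-fold with quantile scaling (−1.06), loess scaling (−1.11) and no pseudocount (−1.30), and without a pseudocount Pdk4 (1.40) and Slc2a4 (1.1) passed it upward. The pentose phosphate and glycogen list had 11 of 15 above the filter, 6 lower and 5 higher, with 1 at least 2-fold lower, 0 at least 2-fold higher and a median of −0.07. That gene, transketolase (Tkt), which returns pentoses to glycolysis, read 7025 and 3299, a log2 ratio of −1.12 that was −0.84 after loess and −0.86 after quantile scaling. Gys1 (glycogen synthase) was at −0.63 and Rpe at −0.48. The list of hypoxia genes outside glycolysis mixes hypoxia-induced genes with genes of the HIF pathway itself, among them Hif1a (−0.40), Arnt (0.80) and Vhl (0.58). It had 11 of 18 above the filter, 6 lower and 5 higher, and a median of −0.02. Past 2-fold, 2 lay lower and 0 higher. The hypoxia-induced genes of this list were not counted apart. The stress-response gene Ndrg1 was at −1.20 and −1.11 by its 2 probe sets (the brighter at −0.96 with the higher pseudocount), the mTORC1 inhibitor gene Ddit4 at −1.03 (−1.09 to −0.88 over the alternatives), and the HIF partner gene Arnt at 0.80 and, below the filter, −1.55.

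Of 30 radial glial and astroglial markers, a list without Aldoc, 19 were above the filter, 14 lower and 5 higher, with a median of −0.23, where 51.6% of all genes were lower. Their ratios ran from −1.75 (Bcan, a proteoglycan of the glial matrix) to 1.06 (Sox2, a progenitor transcription factor), with Bcan and Id4 at least 2-fold lower and Sox2 at least 2-fold higher, against 5.48% and 5.05% of all genes. The 24 measured markers summed to signals of 27092 (wild type) and 26417 (mutant). These sums include probe sets with a name suffix for shared or incomplete probe sets. Among them were the sole Sox2 probe set (2304 and 5042) and the brighter Glul probe set (1427 and 2727). The Glul probe set without a suffix was at −0.15. Without a pseudocount Bcan, at −2.14, nearly matched Aldoc, at −2.15, but with the higher pseudocount they were at −1.27 and −1.86. A dimmer Bcan probe set, below the filter with signals of 69.6 and 126, was at 0.41. Of 22 pan-neuronal markers 18 were above the filter, of which 13 lay lower and 5 higher, their median being −0.28, with 0 past 2-fold. The lowest was Map2, a dendritic microtubule protein, at −1.0. It passed 2-fold without a pseudocount (−1.11) and with no filter (−1.04), and Gap43, a growth cone protein, did so without a pseudocount (−1.02). Both counts can also be set beside the 65.7% of all probe sets in the 3 brightest deciles that were lower. Over the alternatives the median ran from −0.34 to −0.17 for the glial and from −0.43 to −0.02 for the pan-neuronal markers. The summed signal of the pan-neuronal markers was 60601 (wild type) and 51423 (mutant). The part of either cell type in these ratios was not tested, and in whole tissue fewer cells of a type and less RNA per cell cannot be told apart.

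**Figure D3:**
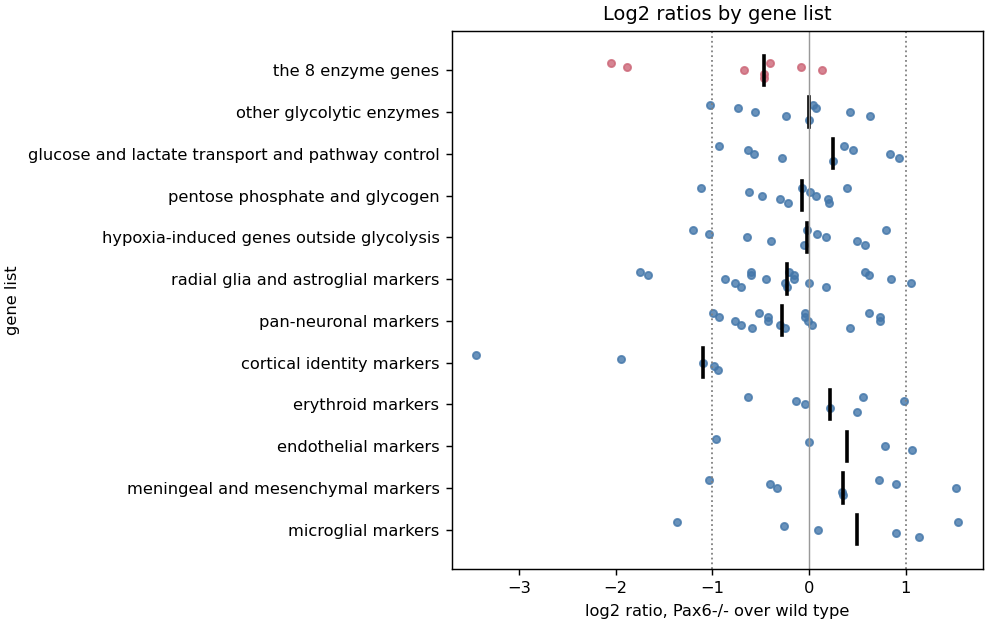
Log2 ratio of Pax6-/- over wild type for the 8 enzyme genes (red, brightest probe set each) and for the genes of 11 lists above the signal filter (blue), 1 point per gene; black bars are medians and dotted lines mark 2-fold. Aldoc at −2.05 and Eno2 at −1.88 stand apart from the other 6 enzyme genes, which lie between −0.68 and 0.13. The mutant signal of Eno2 was below the pseudocount.

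The tissue label was checked against markers of cortical glutamatergic cells: 5 of 9 listed were measured, with a summed wild type signal of 15011 and a mutant signal of 5420, all 5 lower, and a median of −1.10. Other cells of the dissection were followed in the same way, since red cells live on glycolysis. Erythroid markers had a median of 0.22 (3 of 7 lower; sums over all measured members of 19237 and 17392), endothelial markers 0.39 (2 of 4 lower; 1768 and 2150.0), meningeal and mesenchymal markers 0.35 (3 of 8 lower; 6723 and 6848) and microglial markers 0.50 (2 of 6 lower; 2098 and 3556). The microglial sums include suffixed probe sets of Csf1r (372 and 1284) and C1qb (276 and 731). The probe sets of these genes without a suffix were at 0.34 (Csf1r) and −0.93 (C1qb). No signal on either array was below 1.0. The part of these cells in the enzyme values was not tested.

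**Figure D4:**
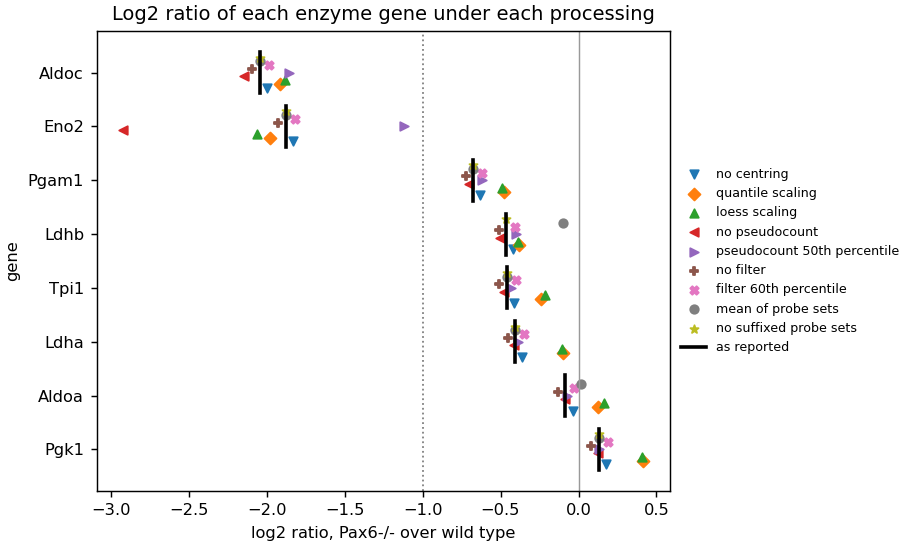
Log2 ratio of Pax6-/- over wild type of the 8 enzyme genes as reported (black bars) and under 9 other ways of processing the signals (coloured symbols); the dotted line marks 2-fold lower. Aldoc stays between −2.15 and −1.86, Eno2 ranges from −2.92 to −1.12 with the pseudocount, and Aldoa lies on both sides of 0.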

How the data were processed

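Biotin-labelled cRNA from total RNA was read on Affymetrix arrays, per the labels' protocols. The deposited values are MAS5 signal intensities on a linear scale; MAS5 is named in the submitters' processing notes, while its version, scaling target and detection calls were not stated there. The members and gene lists were chosen with earlier results of these data known.

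Of 12488 probe sets, 10855 had 1 gene symbol in GEO's platform annotation, 396 several and 1237 none; 10839 matched the GRCm38.p6 gene table by gene ID. The 66 controls were left out of the counts. The pseudocount, 81.5, was the 25th percentile of all signals, and ratios were centred on the median above the filter (40th percentile of the mean log2 value), which removed 0.05. A gene was read by its brightest probe set. Enzyme probe sets were counted whether or not they passed the filter. The technical spread is the SD, over 894 genes in 3 classes by signal, of the gap in log2 ratio between the 2 brightest probe sets of a gene, divided by the square root of 2. The number of arrays limits precision. Alternatives changed the scaling, pseudocount, filter, probe set choice and threshold. Named genes were the enzymes, their paralogs, Gapdh controls, Pax6, and list members past 2-fold or among the 3 largest ratios; those of the marker lists are given mostly as counts, and Hk1, Hk2, Pfkl, Slc2a1, Pfkp, Aldoart2, Gapdhs and Lrrc23 were added after their values were seen. The steps were tested on simulated arrays with the same noise at every signal, smaller than the technical spread of these data. Changes were placed in brighter probe sets only, so that test does not cover dim ones such as Eno2. Python 3.11.15, numpy 2.4.6, pandas 2.3.3, statsmodels 0.14.6 and matplotlib 3.10.9 were used.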

Additional observations from a re-analysis of the deposited data

How the results depend on the processing

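Under all 9 alternatives Aldoc stayed past 2-fold lower (−2.15 to −1.86), and its gap to the other enzymes ran from −1.67 to −1.46. Not all of these could change it. The sole Aldoc probe set has no suffix, so the choice of probe sets left its ratio as it was. Changes of centring or filter shift all ratios alike, so the gaps to Aldoa (−1.96) and to the other enzymes (−1.58) stayed the same there. The gap to Aldoa ran from −2.06 to −1.79 under 8; with suffixed probe sets left out (names that mark shared, family or incomplete probe sets) Aldoa had no value. Averaging probe sets gives no count of probe sets and was not run for those counts. The median of the other enzymes moved to −0.24 with quantile and −0.21 with loess scaling, and Eno2 stayed past 2-fold but moved with the pseudocount. At 1.5-fold 3 enzyme probe sets were lower, at 3-fold 2. No paired analysis was possible because each genotype has 1 array.

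Over all genes, probe sets at least 2-fold higher and lower numbered 352 and 374. They were 263 and 444 after loess scaling, 37.2% higher among those past 2-fold against 48.5%. Without a pseudocount 568 were higher; with the 50th percentile 112 were higher and 147 lower; with no filter 686 and 678; with the 60th-percentile filter 112 and 132; at 1.5-fold 960.0 and 984; at 3-fold 71 and 81.

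Medians that moved were those of pan-neuronal markers (−0.040 quantile, −0.019 loess, −0.43 without suffixed probe sets), transport and control genes (−0.039 with the higher pseudocount, −0.23 with the stricter filter), and, with the stricter filter, hypoxia genes (−0.34), endothelial (−0.90, 1 gene), meningeal (0.033, 4 genes) and microglial markers (1.20, 3 genes). With no filter the erythroid, meningeal and microglial medians were −0.043, 0.031 and 0.064. Without suffixed probe sets the erythroid median was −0.0068 and the microglial 0.090, and with probe sets averaged the microglial was 0.10. The microglial gene C1qb turned to −0.93 without them. The causes were not tested. Of 705 recomputed values, 658 moved by less than a limit set from the technical spread or, for counts, stayed within 1.5 times. For a median the limit was the spread over all genes divided by the square root of the number of genes. For a difference between 2 genes it was the spread times the square root of 2. Some values could not move, such as those of genes with 1 probe set when probe sets were averaged.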

Other observations

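Eno2 and Tpi1 are neighbours on mouse chromosome 6 in the RefSeq annotation of GRCm38.p6, with 3 genes between them, of which only Lrrc23 is protein-coding. The 2 Lrrc23 probe sets were near equal on both arrays, at log2 ratios of 0.10 and 0.12, between Eno2 at −1.88 and Tpi1 at −0.46.

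Slc2a1, the main glucose transporter of brain vessels and glia, and Pfkp, the platelet-type phosphofructokinase expressed in brain, had mean signals below the filter and entered no count. Slc2a1 read 328 (wild type) and 63.8 (mutant), which gave −1.54 on the log2 scale and ran from −2.41 to −0.90 over the alternatives. The Pfkp probe sets disagreed, with 304 and 42.1 (log2 ratio −1.69) in one and 22.1 and 118 (0.90) in the other. Aldoart2, a retrogene copy of Aldoa, was at −0.45, with signals of 312 and 215. All 3 genes were chosen after their values were seen.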
